A study of Arabidopsis thaliana with 4 samples.

Results

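A set of 10 genes known from shoot formation was followed in callus of Arabidopsis thaliana: the boundary genes CUC1, CUC2 and CUC3, the class I KNOX genes STM, KNAT1, KNAT2 and KNAT6, and the AP2/ERF genes DRN (also called ESR1), DRNL and RAP2.6L. They were picked by locus identifier, and all 10 were found among the 32833 genes of the count table. Callus of the wox5-1 wox7-1 double mutant was compared with callus of wild type Col-0, with 2 libraries per genotype and RNA from about 100 calli. Both genotypes were treated alike. Seeds were kept cold for 3 days, seedlings grew 9 days in darkness, hypocotyl pieces of about 1 cm were cut, and callus formed on callus induction medium in continuous light at 22 °C. The medium held the synthetic auxin 2,4-D at 11 µM, the cytokinin kinetin at 0.2 µM and 2% sucrose, and the stage is labelled as 6 days where the protocol gives 5 to 6. Each mutated gene is represented by a single allele. The sources used here do not state that replicate libraries stem from separate cultures. The p-values therefore cover the spread among these 4 libraries alone, which may be technical.

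Arabidopsis shoots can be regenerated in steps: an explant first forms callus on an auxin-rich medium, and that callus makes shoots once it is moved to a cytokinin-rich medium. Callus of the first step resembles a root primordium, and WOX5, a homeobox factor of the root stem cell niche, is expressed there. CUC factors are NAC proteins that mark the boundaries between organs and act before STM, a KNOX homeobox factor that keeps meristem cells undifferentiated. DRN, DRNL and RAP2.6L are factors of the AP2/ERF family that promote shoot regeneration from callus.

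Reads assigned to genes numbered 35078420 and 40008661 in the mutant libraries, against 30041268 and 35975440 in the wild type libraries. Levels are given as CPM (counts scaled to a common library total, with TMM scaling between libraries), and 3 reads in a library correspond to 0.0770 to 0.0986 CPM. WOX5 had 9 and 33 reads in the mutant libraries, against 4378 and 5268 in the wild type libraries. WOX7 had 790 and 864 reads in the mutant and 449 and 473 in the wild type. After scaling WOX7 was called higher in the mutant (log2 fold change 0.68, 1.6 times, edgeR adjusted p = 0.0335). Reads summed along WOX7 say nothing of where the wox7-1 allele interrupts it, so they do not check that label. Markers of callus founder cells and root primordia were present in every library, with a summed level over 8 genes of 1030 and 915 CPM in the mutant and 1080 and 997 CPM in the wild type. Its members did not move alike: LBD17 and LBD18 rose to 3.81 and 1.59 times the wild type level (edgeR adjusted p = 0.0144 and 0.0195), and SCR and PLT2 fell to 0.604 and 0.779 times (0.0223 and 0.0454). The other 4 did not pass. The 5 leaf markers summed to 40.3 and 19.3 CPM in the mutant and 39.8 and 30.5 CPM in the wild type. Most of this was PSAF, with 34.6 and 17.7 CPM in the mutant and 37.5 and 29.2 CPM in the wild type. PSAF had a log2 fold change of -0.35, RBCS1A of 1.19 and LHCB1.3 of 1.05, and none passed (edgeR adjusted p = 0.532, 0.413 and 0.324). LHCB2.1 and GLK1 were too low to be tested. The 4 xylem vessel markers summed to 14.2 and 10.7 CPM in the mutant and 7.33 and 6.17 CPM in the wild type. Of these 4, XCP1 rose, with 5.94 and 3.87 CPM in the mutant and 0.658 and 0.277 CPM in the wild type (edgeR adjusted p = 0.0335), and VND7 did not pass (0.0554). IRX3 had 6.99 and 6.13 CPM in the mutant and 6.64 and 5.84 CPM in the wild type (edgeR adjusted p = 0.814), and VND6 was too low to be tested. Of the defining shoot meristem genes, WUS had 2 reads in the mutant and 0 in the wild type, and CLV3 had 0 and 2, so neither was above the floor of 3 reads.

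Among the boundary genes, CUC1 and CUC2 are known targets of the microRNA miR164, and CUC3 is not. The sequences show this difference, read from the TAIR10.1 genome through the RefSeq annotation. Mature miR164a (chr2:19520770-19520790, plus strand) is followed by the stretch of each CUC mRNA that pairs with it best, all 5′ to 3′ and in DNA letters. Capitals mark the seed (bases 2 to 8) in the microRNA, and in the mRNAs the bases that differ from its perfect complement.
miR164a: tGGAGAAGcagggcacgtgca
CUC1: AgcacgtgTcctgTttctcca
CUC2: AgcacgtgTcctgTttctcca
CUC3: CAcaTgCTAcTAgAttctcca
The stretches of CUC1 (chr3:5111137-5111157, plus strand) and CUC2 (chr5:21902301-21902321, minus strand) are the same 21 bases. Both lie in the coding sequence of exon 3, and 18 of their 21 bases match. The best stretch of CUC3 (chr1:28672053-28672073, minus strand) matched at 12 of 21 bases. Mature miRNAs are not measured by such libraries. Of the precursor genes, MIR164A had 8 and 5 reads in the mutant and 0 and 0 in the wild type. Set against a floor of 3 reads over the wild type, the mutant was 3.88-fold higher, a figure that leaves out counting error. MIR164B had 0 reads in the mutant and 1 in the wild type, and MIR164C had 0 in both. MIR164A failed the filter on low counts and was not tested in the reported fit. Without that filter its edgeR adjusted p was 0.123. MIR164A is named because its values were seen.

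In callus of either genotype the 10 genes fell into an expressed and a nearly silent set. Per kilobase of exon, which allows genes to be compared, the order in the mutant was RAP2.6L (87.6 CPM per kb), KNAT1 (57.0), KNAT6 (50.6) and CUC2 (29.4), and in the wild type it was KNAT1 (60.5), RAP2.6L (39.9), CUC2 (36.6) and KNAT6 (31.9). These are means of 2 libraries. All 4 genes lay above 76.7% to 93.7% of tested genes in the mutant and above 79.2% to 90.3% in the wild type. Next in both genotypes came KNAT2 at 0.629 CPM per kb in the mutant and 0.994 in the wild type, then STM at 0.209 and 0.339, and CUC1 at 0.0862 and 0.145. CUC3, DRN and DRNL were at most 0.0206 CPM per kb in the mutant and 0.0421 in the wild type. Neighbours in this order whose libraries overlapped were KNAT1 and KNAT6 in the mutant, and in the wild type RAP2.6L and CUC2 as well as CUC2 and KNAT6. CUC3, DRN and DRNL overlapped with their neighbours among these 3 in both genotypes. Because these are bulk samples, fewer cells that express a gene and less RNA per cell cannot be told apart.

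**Figure D1:**
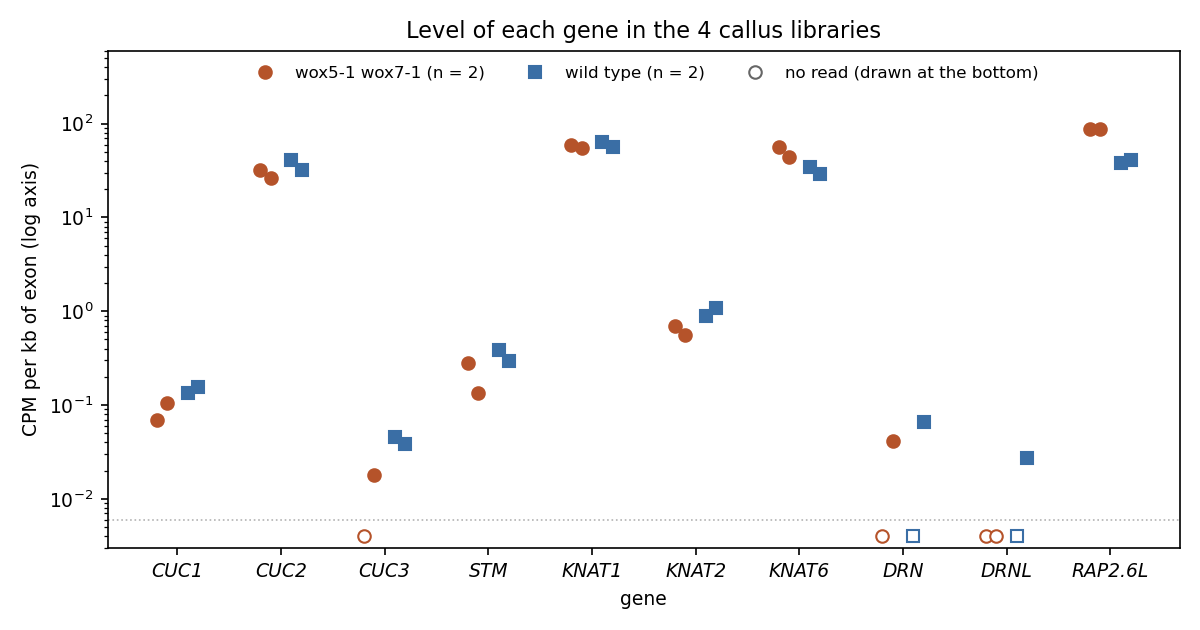
Level of the 10 genes in each callus library, in CPM per kilobase of exon on a log axis, with wox5-1 wox7-1 libraries as circles and wild type libraries as squares; open symbols at the bottom are libraries without a read. CUC2, KNAT1, KNAT6 and RAP2.6L stand far above the other 6 genes in both genotypes, and RAP2.6L has the widest gap between genotypes among these 4.

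Of the 10 genes, 6 passed the filter on low counts and were tested (CUC2, STM, KNAT1, KNAT2, KNAT6 and RAP2.6L). In the mutant RAP2.6L was called higher, 1 of the 6, none was called lower, and 5 missed the threshold (edgeR quasi-likelihood test, adjusted p under 0.05). Over all 18716 tested genes, 11.9% passed, 6.06% higher and 5.81% lower in the mutant. At an unadjusted p under 0.05, 2 of the 6 genes passed in edgeR, RAP2.6L and KNAT6, as did 6247 of all 18716 tested genes. DESeq2, at an adjusted p under 0.05, called these 2 and no other of the 6, and 31.8% of all tested genes. The median log2 fold change of the 6 genes was -0.20, and that of all tested genes was -0.0011. The genotypes did not overlap for 4 of the 6, with 2 higher and 2 lower in the mutant, nor for 64.4% of all tested genes. The 10 genes were chosen with earlier results of these data known, so these shares only describe them.

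**Figure D2:**
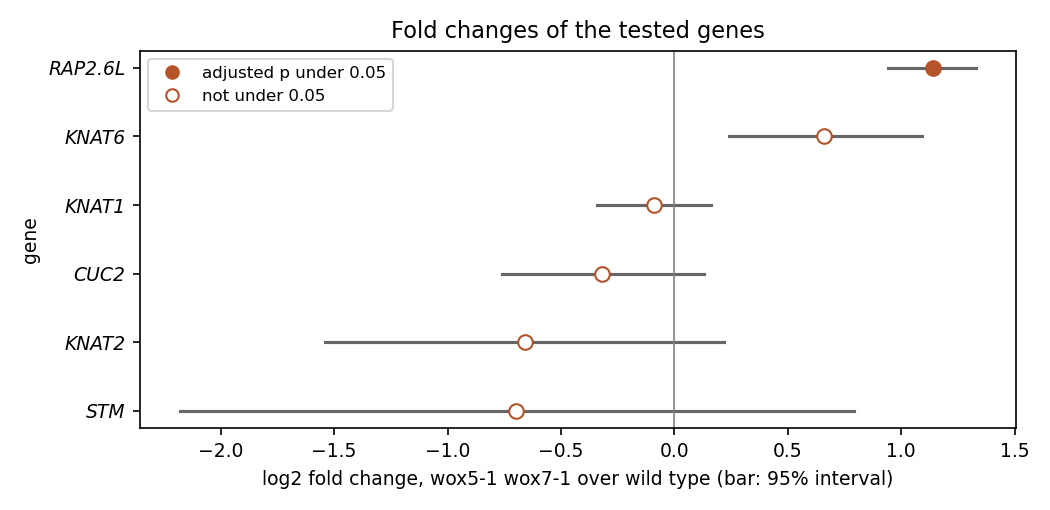
Log2 fold change of the 6 tested genes, wox5-1 wox7-1 over wild type, with 95% intervals from edgeR; filled points have an adjusted p under 0.05. The interval of RAP2.6L runs from 0.94 to 1.33, that of KNAT6 from 0.24 to 1.09, and those of the other 4 genes include 0.

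CUC2 was the boundary gene that callus expressed. It had 47.0 and 38.3 CPM in the mutant libraries, against 59.6 and 46.5 CPM in the wild type libraries. The higher mutant library and the lower wild type library overlapped. CUC2 averaged 42.7 ± 6.16 CPM in the mutant and 53.1 ± 9.27 CPM in the wild type (SD, n = 2 each; log2 ratio -0.32, SE 0.17, edgeR adjusted p = 0.265). The 95% interval of this log2 difference runs from -0.76 to 0.13, so a fall to 0.589 of the wild type level and a rise of 1.10 times both lie within it. With the replicate number as a block the log2 ratio was -0.31 (edgeR adjusted p = 0.0427), but no source says that the numbers mark a shared batch. CUC2 (AT5G53950) lies on the minus strand of chromosome 5 (chr5:21901704-21903854) and has 3 exons, and it gave 99.6% of all reads of the 3 CUC genes.

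CUC1 and CUC3 were near the detection limit. CUC1 (AT3G15170, chr3:5109782-5111608) acts redundantly with CUC2 in separating the cotyledons. It had 3 and 5 reads in the mutant and 5 and 7 in the wild type, a ratio of 0.597 with an exact (Clopper-Pearson) 95% interval of 0.212 to 1.59. The interval includes 1, so no difference was detectable at this depth. CUC3 (AT1G76420, chr1:28671806-28674045), which overlaps with them in function, had 0 and 1 reads in the mutant and 2 and 2 in the wild type. Its ratio was 0.224, with an exact 95% interval from 0.00455 to 2.26. Such intervals cover counting error only.

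KNAT1, also known as BREVIPEDICELLUS and a regulator of stem and inflorescence growth, was the most abundant KNOX gene of both genotypes. The mutant libraries held 120 and 110 CPM and the wild type libraries held 129 and 115 CPM. The genotypes overlapped. The means were 115 ± 6.64 CPM in the mutant and 122 ± 10.5 CPM in the wild type (SD, n = 2 each; log2 ratio -0.088, SE 0.095, edgeR adjusted p = 0.568). The 95% interval, -0.34 to 0.16 on the log2 scale, corresponds to 0.790 to 1.12 times the wild type level. KNAT1 (AT4G08150) lies at chr4:5147699-5151159 on the minus strand, with 5 exons.

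KNAT6, which acts with STM in the shoot meristem and its boundaries and is also expressed in lateral roots, stood higher in both mutant libraries. It had 80.4 and 62.0 CPM in the mutant, against 48.5 and 41.4 CPM in the wild type. Both mutant libraries exceeded both wild type libraries, although the mutant libraries differed from each other by more than the wild type libraries did. The means were 71.2 ± 13.0 CPM in the mutant and 44.9 ± 5.02 CPM in the wild type (SD, n = 2 each). The log2 fold change was 0.66 (SE 0.16, 1.58 times), with an unadjusted p of 0.0111 and an adjusted p of 0.0672 in edgeR, so KNAT6 did not pass the threshold. Without the filter on low counts its edgeR adjusted p was 0.0499, with DESeq2 it was 0.000285, and with the values as deposited it was 0.000624. Leaving out mutant replicate 2 also moved it past the threshold (log2 fold change 0.84, edgeR adjusted p = 0.0465). Without mutant replicate 1 KNAT6 stayed short of the threshold, at 0.46. Without wild type replicate 1 its log2 fold change was 0.79 and without wild type replicate 2 it was 0.55, in fits that called no gene at all. RLE scaling and a stricter filter also left KNAT6 uncalled in edgeR, with adjusted p of 0.0672 and 0.0645. With the replicate number as a block KNAT6 was called (edgeR adjusted p = 0.0099), but no source says that the numbers mark a shared batch. KNAT6 (AT1G23380) lies at chr1:8297241-8302651 on the minus strand.

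KNAT2, the closest relative of KNAT6 among the 4 KNOX genes by coding sequence, was low in callus. It had 1.27 and 1.03 CPM in the mutant, against 1.64 and 1.99 CPM in the wild type. Both mutant libraries lay below both wild type libraries. The log2 ratio was -0.66 (SE 0.33, edgeR adjusted p = 0.240), with a 95% interval of -1.54 to 0.22. KNAT6 exceeded KNAT2 per kilobase by 82.0 and 78.5 times in the mutant libraries and by 38.3 and 27.0 times in the wild type libraries. The 4 ratios do not overlap between genotypes, and an exact two-sided permutation test of 2 against 2 libraries cannot give a p below 0.333. The coding sequences of the pair are 79.6% identical, and their mRNAs share no identical run longer than 41 bases. Of the 50-base windows in the KNAT2 mRNA, 0.170% occur more than once in the nuclear genome, and 0% of those in the other 9 genes do. KNAT2 (AT1G70510) lies at chr1:26576486-26582879 on the plus strand.

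STM was barely expressed. It had 17 and 9 reads (0.481 and 0.231 CPM) in the mutant, against 20 and 18 reads (0.658 and 0.498 CPM) in the wild type. All 4 libraries were under 1 CPM, with both mutant libraries below both wild type libraries. The log2 ratio was -0.70 (SE 0.56, edgeR adjusted p = 0.438), and its 95% interval from -2.18 to 0.79 is wide at this depth. STM (AT1G62360) lies at chr1:23058582-23062063 on the minus strand. Summed over the 4 KNOX genes, mostly KNAT1 and KNAT6, the level was 202 and 173 CPM in the mutant and 180 and 158 CPM in the wild type, and these ranges overlap.

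RAP2.6L, the ethylene response factor whose loss is known to reduce shoot regeneration, alone of the 6 tested genes passed the threshold. It had 132 and 132 CPM in the mutant, against 57.9 and 62.3 CPM in the wild type. The mutant libraries lay close together and far above both wild type libraries. The means were 132 ± 0.440 CPM in the mutant and 60.1 ± 3.12 CPM in the wild type (SD, n = 2 each), and the log2 ratio was 1.14 (SE 0.074, edgeR adjusted p = 0.0135), or 2.20 times. Without wild type replicate 1 the log2 fold change was 1.09 (edgeR adjusted p = 0.124), and without wild type replicate 2 it was 1.19 (edgeR adjusted p = 0.117), so the call was lost in both. In these 2 fits 0 of all tested genes passed, with 3428 and 3346 at an unadjusted p under 0.05. The xylem vessel marker XCP1 and 4 of the 8 root primordium markers also changed, as given above, and their part in the RAP2.6L difference was not tested. RAP2.6L (AT5G13330) lies at chr5:4271730-4274674 on the plus strand, with 2 exons.

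The 250 bases before the RAP2.6L start are shown because it was the gene that passed the threshold (chr5:4271480-4271729 of TAIR10.1, plus strand, 5′ to 3′, 29.6% G and C).
RAP2.6L promoter: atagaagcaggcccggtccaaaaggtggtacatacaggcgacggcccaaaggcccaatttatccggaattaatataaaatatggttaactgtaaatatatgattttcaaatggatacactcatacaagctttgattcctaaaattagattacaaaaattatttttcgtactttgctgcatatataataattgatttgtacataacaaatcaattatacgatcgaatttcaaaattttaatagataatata
These letters were searched on both strands for 5 motifs: TTAATGG and TCACGTGA, both known to be bound by the WOX5 relative WUS; AGATACG, bound by type-B cytokinin response regulators; the GCC box GCCGCC of ERF factors; and the auxin response element TGTCTC. None of the 5 occurs there, so no letter is in capitals, and none occurs in the same window of the other 9 genes. Among 27443 windows of this length before protein-coding genes, the shares that hold them are 6.99%, 0.474%, 1.69%, 1.87% and 10.9%, in the order given.

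DRN and DRNL were practically not detected. DRN (AT1G12980, chr1:4429718-4430965), whose overexpression lets explants form shoots without added cytokinin, had 0 and 2 reads in the mutant and 0 and 3 in the wild type. DRNL (AT1G24590, chr1:8714365-8715378), its relative with a role in cotyledon and floral organ formation, had 0 and 0 reads in the mutant and 0 and 1 in the wild type. Neither exceeded the floor of 3 reads in a genotype, so no ratio is given. The mRNAs of DRN and DRNL share no identical run longer than 23 bases.

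The genes whose pattern over the 4 libraries was most like that of RAP2.6L were AT4G26540, CYP78A7 and AT3G14595. Likeness was the Euclidean distance of log2 CPM centred over the 4 libraries, which was 0.0394, 0.0650 and 0.0804. AT4G26540 had 29.8 and 30.4 CPM in the mutant and 13.0 and 13.8 CPM in the wild type. CYP78A7, a cytochrome P450 gene, had 4.90 and 5.21 CPM in the mutant and 2.17 and 2.30 CPM in the wild type. AT3G14595 had 50 and 48.9 CPM in the mutant and 21.9 and 24.8 CPM in the wild type. With 4 libraries, such likeness mostly restates a similar fold change.

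On the chromosome, neither of the nearest tested genes beside RAP2.6L passed the threshold in the reported fit. Without the filter on low counts PBS3 passed and AT5G13340 did not (edgeR adjusted p = 0.0302 and 0.354). PBS3, an enzyme gene of salicylic acid production, had 172 and 442 CPM in the mutant and 50 and 22.0 CPM in the wild type (log2 ratio 3.09, SE 0.64, edgeR adjusted p = 0.0508). On the other side of RAP2.6L, AT5G13340 had 20.5 and 21.6 CPM in the mutant and 17.8 and 19.3 CPM in the wild type (0.18, SE 0.098, edgeR adjusted p = 0.267). The next tested gene beyond AT5G13340, AT5G13360, rose (0.56, SE 0.069, edgeR adjusted p = 0.0239). The next beyond PBS3, AT5G13310, did not pass (-0.0059, SE 0.097, edgeR adjusted p = 0.974). Next to KNAT6, AT1G23390 rose (1.53, SE 0.21, edgeR adjusted p = 0.0273) and MENG was at -0.11 (SE 0.14, edgeR adjusted p = 0.640). These neighbours were not in the rule for named genes and were looked up by position.

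Around the 10 genes, 72 others of the same pathways were followed in 8 lists, and 49 of them were tested. In the mutant 5 were called higher and 3 lower and 41 missed the threshold, 16.3% called against 11.9% of all tested genes. Their median log2 fold change was 0.15, against -0.0011 over all tested genes. The genotypes did not overlap for 31 of the 49, against 64.4% of all tested genes. Because the lists were chosen with earlier results of these data known, these shares and medians give no evidence on the pathways.

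**Figure D3:**
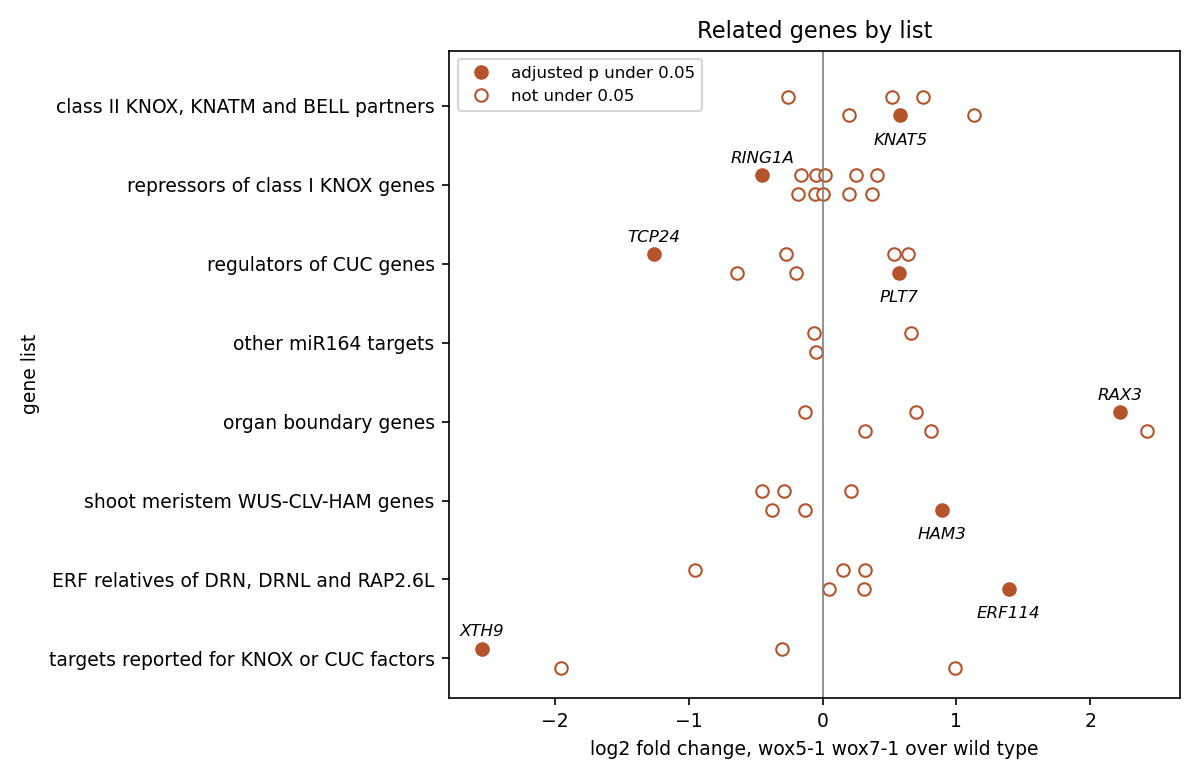
Log2 fold change, wox5-1 wox7-1 over wild type, of the 49 tested genes in the 8 related lists, 1 point per gene; filled and named points have an adjusted p under 0.05 in edgeR. Points lie on both sides of 0 in every list, with XTH9 and TCP24 as the called genes furthest to the left and RAX3 furthest to the right.

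Of the ERF relatives of DRN, DRNL and RAP2.6L, 6 of 9 were tested, 1 rose and 5 did not pass. The riser was ERF114, from the same ERF subgroup as RAP2.6L. It had 44.4 and 39.7 CPM in the mutant, against 15.4 and 16.7 CPM in the wild type, and every mutant library exceeded every wild type library (log2 ratio 1.39, SE 0.11, edgeR adjusted p = 0.0151). Other relatives did not pass: PUCHI, a lateral root factor close to DRN in sequence, had 213 and 166 CPM in the mutant and 147 and 159 CPM in the wild type (edgeR adjusted p = 0.202). LEP, another such relative, had 1.92 and 2.1 CPM in the mutant and 3.49 and 4.29 CPM in the wild type (edgeR adjusted p = 0.0822).

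Regulators of CUC genes moved both ways: of 13, 7 were tested, 1 rose, 1 fell and 5 did not pass. PLT7 is one of the PLETHORA factors known to activate CUC2 for shoot competence. It rose, with 326 and 272 CPM in the mutant against 208 and 196 CPM in the wild type (log2 ratio 0.57, SE 0.11, edgeR adjusted p = 0.0494). Its partners PLT3, which overlaps an opposite-strand gene, and PLT5 did not pass. PLT3 had 822 and 707 CPM in the mutant and 920 and 924 CPM in the wild type (edgeR adjusted p = 0.165), and PLT5 had 30.2 and 37.3 CPM in the mutant and 21.1 and 25.7 CPM in the wild type (edgeR adjusted p = 0.103). TCP24, from the TCP factors that hold back CUC genes in leaves, fell to 15.7 and 15.9 CPM in the mutant, against 40.7 and 34.8 CPM in the wild type (log2 ratio -1.26, SE 0.11, edgeR adjusted p = 0.0176). Of the other miR164 targets, 3 of 4 were tested and 0 passed in edgeR, 0 also at an unadjusted p under 0.05. ORE1, a leaf senescence factor, had 25.5 and 46.4 CPM in the mutant and 22.3 and 23.1 CPM in the wild type (0.66, SE 0.30, edgeR adjusted p = 0.205), and DESeq2 called it (adjusted p = 0.0481). Without mutant replicate 1 its log2 fold change was 1.02 (edgeR adjusted p = 0.0179), and without mutant replicate 2 it was 0.17 (edgeR adjusted p = 0.385).

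Of 10 class II KNOX and partner genes, 6 were tested, 1 rose and 5 did not pass. KNAT5 rose, with 76.5 and 73.9 CPM in the mutant and 49.9 and 50.9 CPM in the wild type (log2 ratio 0.58, SE 0.068, edgeR adjusted p = 0.0226). PNY, a BELL partner of KNOX proteins, had 2.86 and 2.18 CPM in the mutant and 3.19 and 2.85 CPM in the wild type (edgeR adjusted p = 0.557). Of 12 repressors of class I KNOX genes, 11 were tested, 1 fell and 10 did not pass. RING1A, a Polycomb protein gene, fell to 28.4 and 29.1 CPM in the mutant, against 37.8 and 40.7 CPM in the wild type (log2 ratio -0.45, SE 0.086, edgeR adjusted p = 0.0454). An exon of RING1A overlaps AT5G44270 on the opposite strand, and since the sources used here do not give the strand setting, their reads cannot be told apart. AS1, which represses KNAT1, KNAT2 and KNAT6 in leaves, had 32.5 and 23.9 CPM in the mutant and 24.3 and 19.2 CPM in the wild type (edgeR adjusted p = 0.278). It too overlaps a gene on the opposite strand.

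Of 10 organ boundary genes, 6 were tested, 1 rose and 5 did not pass. RAX3, a MYB factor of axillary meristems, rose, with 2.83 and 2.46 CPM in the mutant and 0.691 and 0.442 CPM in the wild type (log2 ratio 2.22, SE 0.38, edgeR adjusted p = 0.0379). LAS, which acts in the same process, had 28.4 and 23.0 CPM in the mutant and 18.5 and 22.7 CPM in the wild type (edgeR adjusted p = 0.254). JLO had 5.29 and 3.23 CPM in the mutant and 1.22 and 0.387 CPM in the wild type and did not pass (2.42, SE 0.64, edgeR adjusted p = 0.0792). Of 9 shoot meristem genes, 6 were tested, 1 rose and 5 did not pass. HAM3, one of the GRAS factors that work with WUS-type homeobox proteins, rose, with 31.0 and 32.4 CPM in the mutant and 18.3 and 15.8 CPM in the wild type (log2 ratio 0.89, SE 0.11, edgeR adjusted p = 0.0245). Its relatives HAM1 and HAM2 had log2 fold changes of -0.29 and -0.13 (edgeR adjusted p = 0.123 and 0.367).

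Of 5 genes reported as targets of KNOX or CUC factors, 4 were tested, 1 fell and 3 did not pass. XTH9, a xyloglucan endotransglucosylase gene reported to act downstream of CUC2 in regenerating callus, fell to 18.7 and 17.8 CPM in the mutant, against 103 and 109 CPM in the wild type (log2 ratio -2.54, SE 0.079, edgeR adjusted p = 0.00788). CUC2 itself had a log2 fold change of -0.32 in the same fit, with the interval given above. Gibberellin synthesis gene GA20OX1, a target that KNOX factors repress, had 0.453 and 0.616 CPM in the mutant and 1.71 and 2.43 CPM in the wild type. It was not called (-1.95, SE 0.40, edgeR adjusted p = 0.05 after rounding, and just above the threshold). GA2OX2, which inactivates gibberellin and is raised by KNOX factors, had 43.9 and 65.6 CPM in the mutant and 25.8 and 29.2 CPM in the wild type (0.99, SE 0.22, edgeR adjusted p = 0.0555). Without the filter on low counts GA20OX1 and GA2OX2 passed (edgeR adjusted p = 0.0452 and 0.0366). GA2OX4, of the same list and enzyme family, stood lower in the mutant, unlike GA2OX2, and did not pass. It had 12.5 and 12.7 CPM in the mutant and 16.3 and 14.9 CPM in the wild type (-0.30, SE 0.11, edgeR adjusted p = 0.142, and 0.189 without the filter). IPT7, also in this list, was too low to be tested, with 1 and 1 reads in the mutant and 3 and 1 in the wild type. All 8 called genes in these lists kept the sign of their fold change when either wild type library was left out. Those fits called no gene at all, as given for RAP2.6L above, so a lost call there says nothing particular to these 8. RING1A and RAX3 lost their calls without mutant replicate 1 (log2 fold change -0.43 and 2.12) or mutant replicate 2 (-0.46 and 2.32). PLT7 lost its call without mutant replicate 1 (0.43) and HAM3 without mutant replicate 2 (0.87).

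**Figure D4:**
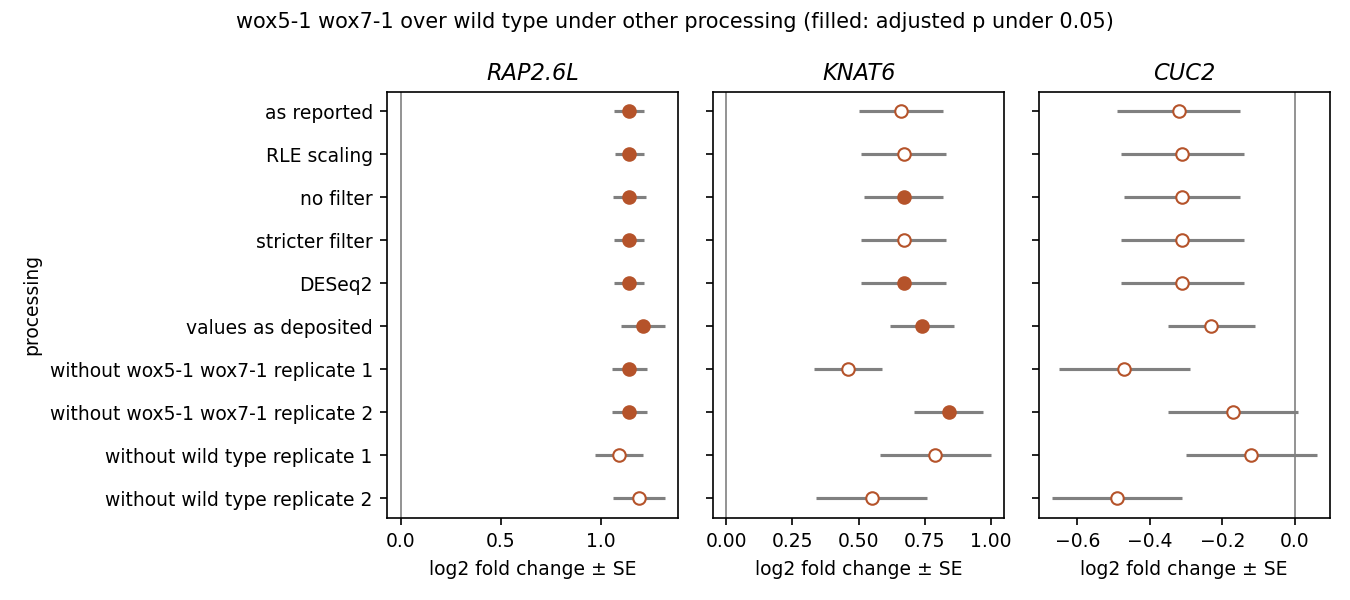
Log2 fold change with SE, wox5-1 wox7-1 over wild type, of RAP2.6L, KNAT6 and CUC2 as reported and under other ways of processing. Filled points have an adjusted p under 0.05. The fit with the replicate number as a block, which called KNAT6 and CUC2 as well as RAP2.6L, is not drawn. RAP2.6L stayed between 1.09 and 1.21. Its call was lost without either wild type library, in fits that called no gene at all. KNAT6 ranged from 0.46 to 0.84 and CUC2 from -0.49 to -0.12.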

How the data were processed

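Gene-level read counts, whole numbers for 4 libraries, were deposited by the authors. STAR 2.7.2b, Trim Galore 0.5.0, DESeq2 and the build TAIR10 appear in the submitters' processing notes, without roles, while the sources used here do not give the counting tool or strand setting. Every value is at least 10, and 33.1% to 35.3% of genes per library hold exactly 10, so a constant of 10 was taken as added and was subtracted. This is an inference from the values.

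Counts were tested in R 4.3.3 with edgeR 4.0.16 (filterByExpr, TMM, glmQLFit and glmQLFTest, two-sided, no covariates), with p-values adjusted by Benjamini-Hochberg across the 18716 genes that passed the filter and calls at 0.05. SE is the absolute log2 fold change over the square root of F, and 95% intervals use its t quantiles. The test was also run on simulated data, with 200 genes changed 3-fold. Those data had less spread between libraries than the real ones, so that run does not gauge the calls reported here. DESeq2 1.42.0 was an alternative. Positions, exon lengths and sequences came from RefSeq's TAIR10.1 annotation and genome. Replicate libraries were not duplicates: their counts gave a chi-square of 46.6 per degree of freedom in the mutant and 19.2 in the wild type.

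The 10 genes and the lists were chosen with earlier results of these data known. Named from each related list were the up to 4 called genes with the smallest p, or the tested gene with the smallest p where none passed, and the further genes named in a list were chosen after their values were seen.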

Additional observations from a re-analysis of the deposited data

How the results depend on the processing

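RLE scaling and the stricter filter (CPM of at least 1 in 2 libraries) left the counts of called genes within 1.5 times those reported: 1 higher and 0 lower among the 10 genes, 5 higher and 3 lower among related genes, and 2223 over all genes. Without a filter 2 of the 10 genes were higher. With DESeq2 on the same genes 2 were higher, with 11 related genes higher, 8 lower and 5946 over all genes. With the values as deposited 2 were higher, with 9 related genes higher and 3921 over all genes, of which 66.5% were higher in the mutant against 51.1% as reported; that fit covered 32833 genes and used a moving-average dispersion trend. With the replicate number as a block 2 of the 10 genes were higher and 1 lower (CUC2, log2 fold change -0.31, edgeR adjusted p = 0.0427; KNAT6, 0.66, adjusted p = 0.0099), with 10 related genes higher, 8 lower and 4750 over all genes. Deviations of same-numbered libraries correlated at 0.56 across genes, but no source says that the numbers mark a shared batch. Leaving out 1 library in turn gave 0 to 2 higher and 0 to 0 lower among the 10 genes, 0 to 5 higher and 0 to 3 lower among related genes, and 0 to 2493 over all genes; these fits leave a genotype with 1 library, taken to vary like the other. KNAT1 alone changed sign among the genes compared, at 0.0095 without wild type replicate 1 (range -0.18 to 0.0095 over the fits that left out a library). The causes were not tested. Depth limits CUC1, CUC3, STM, DRN and DRNL, which had at most 20 reads in any library.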
